A study of Mus musculus with 5 samples.

Results

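The genes described here encode chains of the T-cell receptor complex and other products typical of the T lineage, measured in cultured mouse pro-B cells after deletion of the B-lineage factor Ebf1. They are Cd3d, Cd3e, Cd3g, Cd247, Zap70, Lat, Cd28, Thy1, Bcl11b and Gata3. Every array feature (spot) that the platform annotation pairs with one of these 10 symbols alone was taken, which gave 26 of 45018 features, for 10 of 19087 named genes. The cells came from fetal livers at 16.5 days post coitum and were grown on OP-9 stromal cells with interleukin-7. All cultures carried ER-Cre, a Cre that needs tamoxifen to act, received 4-hydroxytamoxifen for 24 hours and were grown for 4 more days. The 2 control arrays (3 and 6) carried genotype Ebf+/fl, in which Cre can delete 1 allele, and the 3 arrays called deleted here (4, 5 and 7) carried Ebf fl/fl. Controls were therefore cells with a floxed allele exposed to tamoxifen as well, and not untouched wild-type cells. No source used here names the promoter behind ER-Cre. The titles also carry a first number, 111 for both controls and 93 for the deleted samples, which cannot be told apart from genotype.

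A T-cell receptor recognises antigen with its variable chains and signals through the CD3 chains, encoded by Cd3d, Cd3e, Cd3g and Cd247, whose cytoplasmic tails carry tyrosine-based activation motifs. The kinase Zap70 docks on the phosphorylated motifs and phosphorylates the membrane adaptor Lat, which assembles further adaptors and phospholipase C gamma. Gata3 and Bcl11b are transcription factors of T-cell commitment. B-cell precursors have a related pathway that starts from the pre-B-cell receptor. Loss of Ebf1 is known to loosen B-lineage restriction, and the comparison asks how RNA levels differ between deleted and control cells.

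Levels below are deposited intensities, on a linear scale, or log2 intensities minus that array's 75th percentile (level), as named. The 40th percentile of each array, at intensities between 7.57 and 9.60, stands in for detection flags. A gene was represented by its feature with the highest mean and was tested if at least 2 of 5 arrays exceeded that percentile. For a gene that exceeded this percentile in no array of one group, the difference is given as a lower limit ("at least N-fold"), and its fitted log2 fold change includes signal below the percentile. Adjusted p-values are from limma over all 13419 genes tested. Of these, 2324 passed a threshold of 0.05 (17.3%), with 8.58% higher (1151) and 8.74% lower (1173) in deleted cells. Without scaling between arrays the split was 669 higher and 1062 lower, and the median of all genes shifted by -0.13 on the log2 scale. Arrays of the same group correlated with Pearson's r of at least 0.979 across genes, which are not independent replicates. Of 3 Ebf1 features, that for AK036716 was 8.11-fold lower in deleted cells and the others changed by at most 1.36-fold. All 11 pro-B markers examined exceeded the 40th percentile in every array, and 7 of them were lower in deleted cells, so the cultures carried pro-B transcripts in both groups. RNA came from whole cultures, so a change in the number of cells expressing a gene and a change in RNA per cell cannot be told apart.

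**Figure D1:**
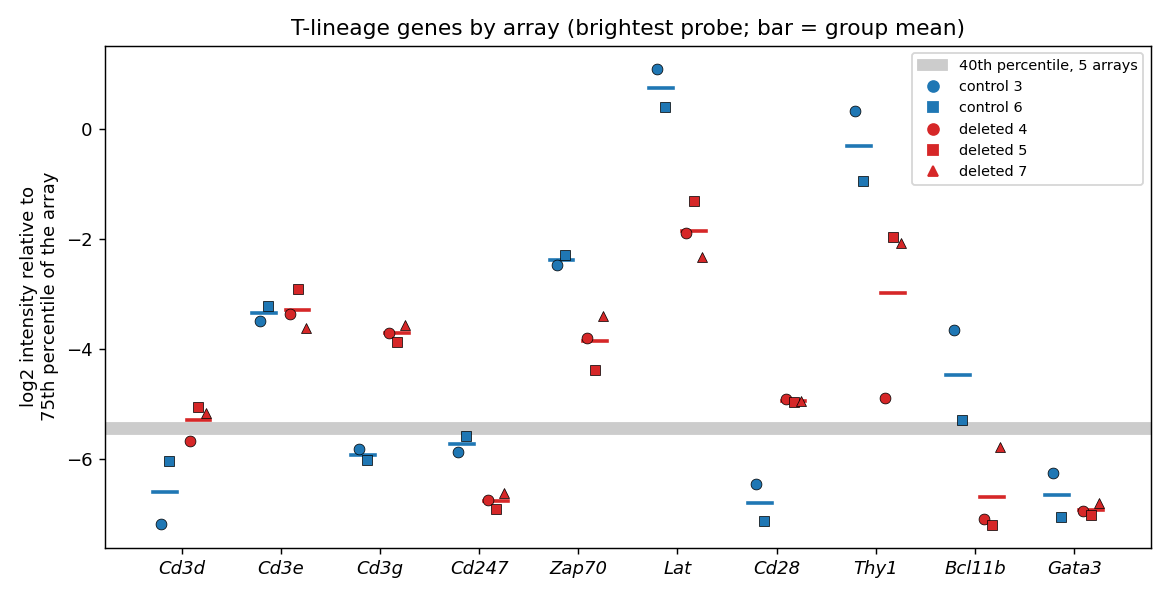
Level of each T-lineage gene on each array, as log2 intensity minus the array's 75th percentile (vertical axis), for its brightest feature. Points are arrays, coloured by group, short bars are group means, and the grey band is the range of the 40th percentiles. Lat, Zap70, Thy1 and Cd3e lie above the band on all 5 arrays, while Cd247 and Gata3 lie below it on all 5.

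Of the CD3 chains, Cd3g rose in deleted cells, Cd3e had a difference near 0, Cd3d could not be called, and Cd247 did not exceed the 40th percentile of any array. Cd3g encodes the gamma chain, which pairs with the epsilon chain in the receptor complex. Its intensities were 7.02 and 6.48 in controls 3 and 6, against 30.04, 20.8 and 36.7 in deleted 4, 5 and 7. Both controls lay at or below the 40th percentile and all 3 deleted arrays above it, so the groups did not overlap. Cd3g was at least 3.26-fold higher in deleted cells (limma adjusted p = 0.0086), its level going from -5.91 ± 0.14 (SD, n = 2) to -3.71 ± 0.16 (SD, n = 3) on the log2 scale. The call held in all 15 alternative settings that could be run, and the limit ranged from 3.09-fold to 3.46-fold with 1 array left out. The gene remained dim after its rise, with a percentile rank between 51.0 and 53.5 among the features of the deleted arrays.

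Cd3e encodes the epsilon chain. Its brighter feature read 35.4 and 45.3 in the controls and 38.1, 40.9 and 35.3 in deleted cells, so the groups overlapped. The log2 fold change was 0.06 (SE 0.31, 95% interval -0.70 to 0.81, adjusted p = 0.93). The interval leaves room for a change of less than 2-fold either way, and the sign turned in 4 of 15 alternative settings, including the one without scaling between arrays. A second Cd3e feature, for BC028636, read between 2.25 and 3.68 and was not above the 40th percentile of any array.

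Cd3d encodes the delta chain. It read 2.76 and 6.42 in controls and 7.66, 9.28 and 12.1 in deleted cells, and only deleted 5 and deleted 7 exceeded the 40th percentile. Every deleted array was above every control, but the measured difference rests on values near the dimmest that the arrays report. Against the percentile limit Cd3d was at least 1.09-fold higher (adjusted p = 0.14), and it passed in 0 of 13 alternatives.

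Cd247 encodes the zeta chain, which carries most of the activation motifs of the complex. Its 4 features gave 20 values between 1.88 and 8.75, of which 0 exceeded the 40th percentile, so it was not tested. The receptor complex was thus measured above the percentile limit in deleted cells for the gamma and epsilon chains on all 3 arrays, for the delta chain on 2 of 3, and for the zeta chain on 0 of 3.

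Cd3g, Cd3d and Cd3e are consecutive genes on mouse chromosome 9 in the GRCm38.p6 annotation, and Cd3g is transcribed away from Cd3d. On either side of the trio, the nearest tested protein-coding genes, looked up after the values were seen, were Ube4a, with a log2 fold change of -0.07 (adjusted p = 0.90), and Mpzl2, which fell by 3.24 (adjusted p = 0.013). Neither neighbour rose.

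The kinase Zap70 and the adaptor Lat moved the other way. Lat read 846 and 551 in controls 3 and 6, against 105, 123 and 85.9 in deleted 4, 5 and 7. The lowest control was several times above the highest deleted array, and all 5 arrays were above the 40th percentile. Lat fell by 2.59 on the log2 scale (SE 0.35, adjusted p = 0.0057), a 6.02-fold difference, from 0.75 ± 0.49 (SD, n = 2) to -1.84 ± 0.51 (SD, n = 3). The call held in all 16 alternatives run, with log2 fold changes from -2.94 to -2.24. Deleted cells kept signal for Lat, at percentile ranks from 60.8 to 67.5.

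Zap70 read 71.5 and 85.2 in controls and 27.9, 14.7 and 41.0 in deleted cells. The groups did not overlap, and all arrays were above the 40th percentile. Zap70 was 2.78-fold lower (log2 fold change -1.47, SE 0.35, adjusted p = 0.035). It no longer passed without control 3 (adjusted p = 0.144), control 6 (0.127), deleted 4 (0.0744) or deleted 5 (0.0613), with log2 fold changes between -1.71 and -1.21 over the 5 leave-outs.

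The 250 bases before the annotated start of Cd3g, Lat and Zap70 are shown because these 3 genes had 1 feature each and passed the threshold, in opposite directions. They are the gene strand, 5′ to 3′, from RefSeq on GRCm38.p6, at chr9:44980432-44980681 (minus strand), chr7:126369569-126369818 (minus strand) and, for the first of 3 annotated starts of Zap70, chr1:36761548-36761797 (plus strand). Capitals mark CANNTG, the general E-box pattern, of which E proteins such as the product of Tcf3 read only some forms.
Cd3g: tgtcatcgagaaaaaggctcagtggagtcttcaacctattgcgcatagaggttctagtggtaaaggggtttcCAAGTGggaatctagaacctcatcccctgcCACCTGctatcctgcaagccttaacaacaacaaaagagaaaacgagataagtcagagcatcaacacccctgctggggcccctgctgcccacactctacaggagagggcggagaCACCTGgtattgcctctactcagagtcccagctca
Lat: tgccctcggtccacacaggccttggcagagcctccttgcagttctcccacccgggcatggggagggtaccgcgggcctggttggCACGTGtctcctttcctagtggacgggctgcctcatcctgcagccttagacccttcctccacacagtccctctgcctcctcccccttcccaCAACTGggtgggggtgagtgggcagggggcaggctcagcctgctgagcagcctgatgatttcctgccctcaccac
Zap70: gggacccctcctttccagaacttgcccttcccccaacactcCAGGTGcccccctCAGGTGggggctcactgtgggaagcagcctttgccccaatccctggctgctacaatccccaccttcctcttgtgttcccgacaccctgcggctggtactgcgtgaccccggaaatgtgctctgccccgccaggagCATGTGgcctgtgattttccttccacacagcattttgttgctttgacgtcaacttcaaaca
The windows hold 3, 2 and 3 matches, and 66.2% of 32851 RefSeq promoter windows of this length hold at least 1. The Cd3d and Cd3e windows hold 1 each, the Cd247 window 2, and those of Bcl11b and Gata3 hold 0. CCCNNGGG, the core of the motif bound by Ebf1, was searched likewise. Both motifs read the same on either strand, and in the member windows no match of one overlapped a match of the other. CCCNNGGG was found in the Bcl11b window and in that of the third Zap70 start, against 11.8% of all windows. A match in these letters is a description and does not show binding.

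**Figure D2:**
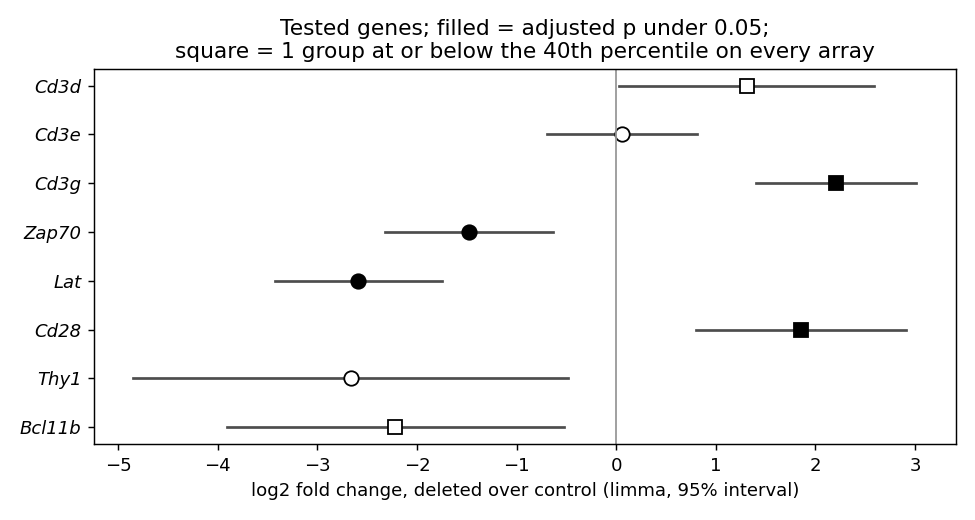
log2 fold change of deleted over control cells (horizontal axis) for the 8 members tested, with 95% intervals from the limma fit over all genes. Filled symbols passed an adjusted p of 0.05, and squares mark genes whose arrays in 1 group were all at or below the 40th percentile, so that the plotted value includes signal below that limit. Cd3g and Cd28 are filled on the right, Zap70 and Lat on the left, and the interval of Cd3e spans 0.

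Among the surface proteins, Thy1 was lower in every deleted array than in either control, but with a spread that its main test did not pass, and Cd28 was dim throughout. Thy1 encodes a glycoprotein of thymocytes that is also found on other cells, including some early progenitors. Its bright feature read 496 and 217 in controls and 13.2, 78.3 and 102 in deleted cells. Deleted 4 stood well below the other two deleted arrays. The log2 fold change was -2.66 (SE 0.91, 95% interval -4.85 to -0.48, adjusted p = 0.094). With 1 array left out it did not pass either, at -2.03 without control 3 (adjusted p = 0.39), -3.30 without control 6 (0.127), -1.71 without deleted 4 (0.0515), -3.17 without deleted 5 (0.115) and -3.11 without deleted 7 (0.0850). A dim second feature for the same accession read 22.5 and 8.46 in controls and 3.37, 2.49 and 4.20 in deleted cells. The mean of both features had a log2 fold change of -2.30 (adjusted p = 0.049), which passed.

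Cd28 encodes the costimulatory receptor that binds Cd80 and Cd86. It had 11 features, 10 of them named for accession NM_007642. Whether these 10 carry the same probe sequence was not determined, and they are called spots here. In control 6 the 10 spots read from 2.01 to 3.01 (median 2.20), with 0 above the array's 40th percentile. In control 3 they read from 3.37 to 19.5 (median 4.43), with 1 above it. In deleted 4 they read from 7.68 to 16.1 (median 13.2), with 9 above. In deleted 5 they read from 2.08 to 9.84 (median 3.50), with 3 above, and in deleted 7 from 8.75 to 16.0 (median 11.4), with 8 above. Deleted 4 and deleted 7 were thus the higher arrays, while the spots of deleted 5 overlapped those of control 3.

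The spot with the highest mean passed the test as Cd28's representative (adjusted p = 0.035), at least 1.39-fold higher in deleted cells, but it did not pass in any of the 5 fits that left out 1 array (adjusted p from 0.0610 to 0.119). The mean of the 10 spots had a log2 fold change of 1.36 (adjusted p = 0.19). Of 7 of these spots that passed the filter, all 7 had positive log2 fold changes, from 0.54 to 2.16. In the fit over all 27969 features 2 passed (adjusted p from 0.035 to 0.77), against 12.8% of all features. Most of the 7 exceeded the 40th percentile in no control. These could enter the fit only through deleted arrays, which favoured a positive sign. Spots of 1 gene on the same arrays are not replicates. A call from 1 spot is thus not carried by the mean over spots. The SD between Cd28 spots had a median of 0.33 over arrays on the log2 scale, against 0.44 for 56 other 10-spot genes below the 40th percentile and 0.06 for 33 such genes above the 75th. The feature for AK041322 was not above the 40th percentile of any array.

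**Figure D3:**
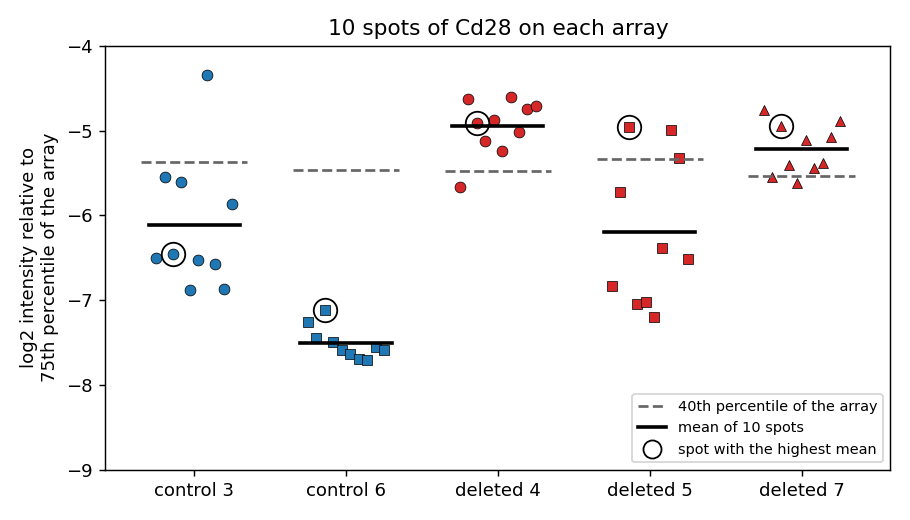
The 10 spots for Cd28 accession NM_007642 on each array, as log2 intensity minus the 75th percentile (vertical axis). Points are spots, black bars their mean, dashed lines the array's 40th percentile, and circles the spot used to represent the gene. The circled spot is the top one in deleted 5, where the mean of the 10 is -6.20, close to -6.12 in control 3.

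Of the transcription factors, Bcl11b, which enforces T-cell commitment, was dim in controls and lower still in deleted cells without passing. Its brighter feature read 31.7 and 10.7 in controls and 2.88, 2.10 and 7.86 in deleted cells, where no array exceeded the 40th percentile. Bcl11b was at least 1.98-fold higher in controls (adjusted p = 0.079). It passed in 1 of 12 alternatives, without deleted 7 (adjusted p = 0.0498). A second feature, for AK020296, exceeded the 40th percentile in control 6 alone, at 14.0, with all other values at or below 2.62. Gata3 read between 2.38 and 5.23 and did not exceed the 40th percentile of any array, so it was not tested.

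Over the 10 members, 2 were higher, 2 lower, 4 did not pass and 2 were not tested. Of all genes tested, 8.58% were higher and 8.74% lower. This set of 8 tested members is not an unbiased sample, since 4 of them (Cd3g, Cd3d, Cd28 and Bcl11b) exceeded the 40th percentile in 1 group only and could enter the fit only through that group. Of the 4 above it in both groups, Lat and Zap70 were lower and Thy1 and Cd3e did not pass. In a fit of all 19087 genes without the filter, where 9.51% passed (4.7% higher and 4.81% lower), 3 of the 10 members passed, with 2 higher and 1 lower, Zap70 being the one lost (adjusted p = 0.065). Of the 8 tested, 7 had groups that did not overlap, against 51.7% of all genes tested. The median log2 fold change of the 8 was -0.71, or -0.46 with the genes dim in 1 group set at their limit, against 0.10 over all genes tested. By feature, 14 of the 26 were tested, with 3 higher (2 of them Cd28 spots) and 2 lower, against 12.8% of 27969 features called (5.94% higher and 6.89% lower; 49% of features had groups that did not overlap), and 7 of the 26 were above the 40th percentile of no array. The number of member genes called was 4 with all arrays and 2 without control 3, control 6, deleted 4 or deleted 5.

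Other genes that act with these products also went both ways. Of 15 tested genes of receptor-proximal signalling, 4 were higher and 4 lower, with a median log2 fold change of 0.14. Txk, a Tec-family kinase of T cells, read 2.88 and 7.32 in controls and 91.5, 90.7 and 136 in deleted cells. All 3 deleted arrays were far above both controls, and Txk was at least 11.9-fold higher (adjusted p = 0.0019). A second Txk feature was at least 1.87-fold higher. With 1 array left out, the limit for the brighter feature ranged from 11.2-fold to 13.1-fold. Grap2, the adaptor that joins Lat to Lcp2, rose by 1.86 (SE 0.16, adjusted p = 0.0015).

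Lcp2, the adaptor SLP-76, read 261 and 242 in controls and 38.1, 25.5 and 54.5 in deleted cells, and fell by 2.61 (SE 0.26, adjusted p = 0.0023). Ubash3a, a negative regulator of T-cell receptor signalling, fell by 2.32 (SE 0.48, adjusted p = 0.024), a call lost without control 3 (0.157) or deleted 7 (0.0504). Plcg1, the phospholipase that binds Lat, was also lower, with a log2 fold change of -1.18 (adjusted p = 0.011), though not past the threshold without control 3 (0.0804). Of its other features, that for NM_021280 gave -1.70 (adjusted p = 0.023) and that for AF027185 -0.37 (0.44), so the features disagree in size. Of these partners of Lat, Lcp2 and Plcg1 were lower and Grap2 was higher.

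Of 10 tested receptor chains, coreceptors and surface proteins, 2 were higher and 1 lower, with a median of 0.38. Ccr9, a chemokine receptor of thymus-homing cells, rose by 2.51 (SE 0.31, adjusted p = 0.0045). Cd2, an adhesion receptor of T cells that mouse B cells also carry, rose by 1.68 (adjusted p = 0.040), a call lost without control 3 (log2 fold change 0.95, adjusted p = 0.135), deleted 5 (0.121) or deleted 7 (0.0829), with 2.41 without control 6. Il2ra, a receptor chain found on early T cells and on pre-B cells, fell by 3.25 (SE 0.53, adjusted p = 0.010). Tcra, Ptcra (the pre-T-cell receptor alpha chain) and the 12 features of Cd8a exceeded the 40th percentile of 0 arrays. The brightest of 11 Cd4 features was above that percentile on all 5 arrays but dim, at intensities from 13.5 to 21.7 (log2 fold change 0.51, adjusted p = 0.32). Another Cd4 feature was above it on no array. Cd8b1 was above it on deleted 4 alone.

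Of 18 tested regulators of the T lineage, 9 were lower and 2 higher, with a median of -1.02. Several act in both lymphoid lineages, so this list is not specific for T cells. Zfpm1, the GATA cofactor FOG-1, fell by 3.96 (SE 0.37, adjusted p = 0.0019), and Dtx1, a target of Notch signalling, by 2.59 (SE 0.21, adjusted p = 0.0013). Tcf3 and Myb fell by 1.61 (adjusted p = 0.0052) and 1.55 (adjusted p = 0.0093), Myb not passing without control 3 (0.0644). These 3 lists and the 4 lists of other cell types were chosen with earlier results of these data known. The share of called genes among them is therefore not independent of these data. Over these lists, 38 of 76 genes tested passed, against 17.3% of all genes. Without control 3, 19 of 76 did, against 5.35% of all genes.

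**Figure D4:**
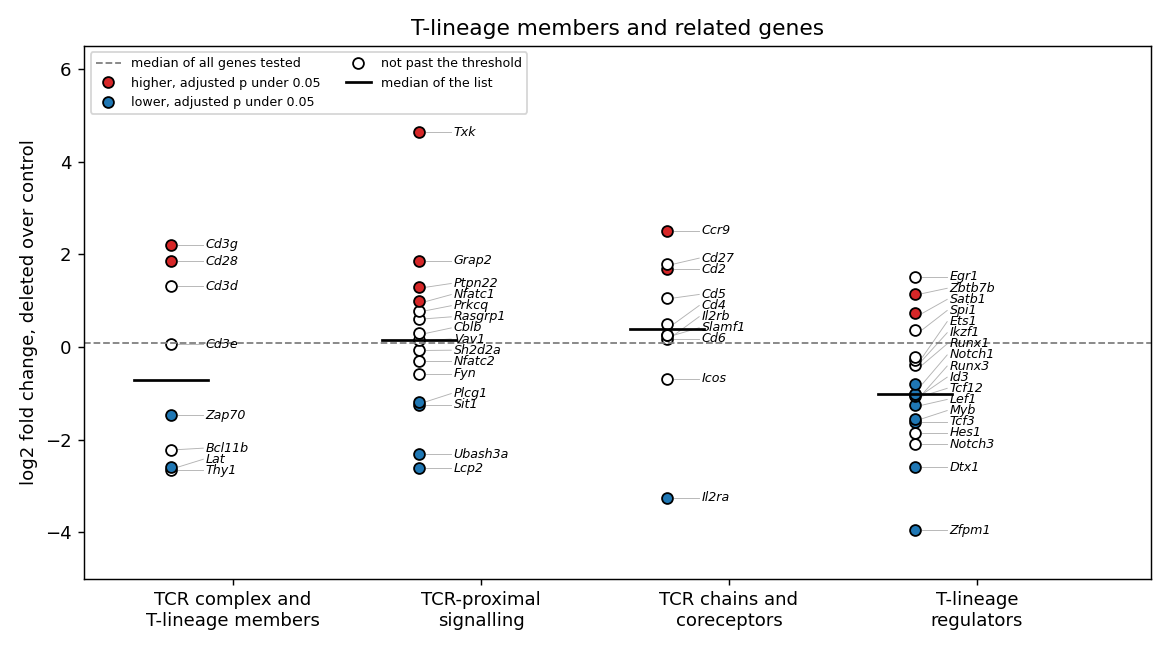
log2 fold change of deleted over control cells (vertical axis) for each tested gene of the T-lineage members and of 3 related lists, with filled points for an adjusted p under 0.05. Short bars are list medians and the dashed line is the median of all genes tested, 0.10. Each list holds genes on both sides of 0, with Zfpm1 at -3.96. The plotted value of Txk includes control signal below the 40th percentile, and its supported difference is at least 11.9-fold.

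Lat and Zap70 are not confined to T cells. Natural killer cells also express both and mast cells express Lat, so markers of other cells are given beside them. No list of mast-cell markers was made. Whether the pro-B cells themselves carried the signal of Lat and Zap70 was not tested. Of 9 tested natural killer and innate lymphoid genes, 2 were higher and 3 lower, and the granzyme genes Gzma and Gzmb and the receptor gene Ncr1 were not tested because of low signal. Klrb1c, a receptor of natural killer cells, fell by 3.11 (SE 0.31, adjusted p = 0.0022), with 311 and 302 in controls and 44.7, 28.2 and 26.9 in deleted cells. Its second feature was above the 40th percentile of no array. Nkg7, a granule protein gene, stood at -2.91 (adjusted p = 0.028), and -1.76 without control 3 (adjusted p = 0.083) or -4.06 without control 6. It was also lost without deleted 5 (0.0844) or deleted 7 (0.0575). Id2, an E-protein inhibitor, fell by 1.63, and Tyrobp, an adaptor of activating receptors, rose by 1.56 (adjusted p = 0.0043 and 0.0062).

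The summed level of that list, in multiples of the array's 75th percentile over 15 genes, was 7.43 to 9.09 in controls and 8.83 to 10.4 in deleted cells. Most of that sum was Klrd1, a receptor chain of natural killer cells chosen here after its values were seen, which read 2048 and 1664 in controls and 3256, 2284 and 3012 in deleted cells. Klrd1 rose by 0.74 (adjusted p = 0.030), a call lost without scaling (0.114) and without control 3 (0.0562), control 6 (0.128), deleted 4 (0.0863) or deleted 5 (0.0729). Without Klrd1, left out after its values were seen, the summed level was 3.45 to 3.91 in controls and 1.83 to 2.08 in deleted cells. This remainder was not tested, and it holds genes in both directions, with Klrb1c, Nkg7 and Id2 lower and Tyrobp higher. The direction of the sum thus depends on whether Klrd1 is counted. For 10 myeloid genes the summed level was 5.00 to 16.6 in controls and 2.83 to 3.24 in deleted cells. Most of that sum was Lyz2, chosen here after its values were seen, which read 5683 in control 3 and 1648 in control 6. Lyz2 did not pass (log2 fold change -1.75, adjusted p = 0.055). Of 7 myeloid genes tested, 2 were lower and 1 higher, and Adgre1, Csf3r and Elane were too dim to test. Within this list Fcgr1 was at least 8.62-fold higher (adjusted p = 0.0064), or at least 5.35-fold without deleted 5. That feature exceeded the 40th percentile in no control, so Fcgr1 entered the fit only through the deleted arrays. The second Fcgr1 feature exceeded the 40th percentile in deleted 5 alone. Lyz1 and Itgam were lower (adjusted p = 0.034 and 0.049), Lyz1 not passing without control 3, where its log2 fold change was -1.14 against -1.98 and -2.82 without control 6, nor without deleted 4, 5 or 7, and Itgam not without either control, deleted 5 or deleted 7. For 12 stromal genes the summed level was 1.54 to 1.67 and 1.38 to 2.15, with Sparc higher by 1.63 (adjusted p = 0.0053) and 0 lower of 6 tested. Among the pro-B markers, Igll1, Il7r, Vpreb3 and Vpreb1 had log2 fold changes of -4.39, -3.86, -3.13 and -2.92 (adjusted p = 0.032, 0.0059, 0.015 and 0.037), and Vpreb1 is near-identical to Vpreb2. Of these, Igll1 and Vpreb1 were lost without either control or deleted 5, and Vpreb3 without either control. Without deleted 4, Igll1 stood at -3.29, Vpreb3 at -2.51 and Vpreb1 at -2.15, and Igll1 at -5.22 without deleted 7. The part of any of these cell types in the values of Lat, Zap70, Thy1 or Cd3g was not tested.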

How the data were processed

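RNA of 5 cultures was labelled with Cy3 from 0.2 µg of total RNA and measured on 1-colour Agilent arrays, per the labels' protocols. The authors deposited 1 linear intensity per feature. The submitters' processing notes name Agilent Feature Extraction, with no version; background handling and spot flags are unknown here. Of 45018 features, 33653 had 1 gene symbol, 56 several (not named) and 11309 none. Of the named ones, 33517 matched a reference gene by gene ID, and 0 symbols changed. Groups came from the titles. For the results, log2 intensities were centred on each array's 75th percentile. Each gene took its brightest feature by mean, and genes (or features) above the 40th percentile in at least 2 arrays were fitted in R 4.3.3 with the package limma 3.58.1 (a linear model with moderated variances and an intensity trend, two-sided, Benjamini-Hochberg over everything tested); the fit was tested on simulated data. Where a group was at or below the 40th percentile on every array, the fold is a lower limit against that percentile, or the gene's own value where higher. Array number limits the precision, and the labels do not say that samples came from separate embryos, so p-values may measure technical spread. Members and lists were chosen with earlier results of these data known. Named beyond the members were Ebf1 and, of each list, up to 4 genes past the threshold with the largest change. Plcg1, Klrd1, Lyz2, Cd4, Ube4a, Mpzl2 and genes named as too dim were chosen after their values were seen. Alternatives covered scaling, filter, probe summary, variance model, array weights and each array left out; 2 more were added after seeing the data. Probe positions were not used here.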

Additional observations from a re-analysis of the deposited data

How the results depend on the processing

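Lat and Cd3g kept their direction and call in every alternative in which they were tested; the 60th percentile filter left Cd3g out. The number of member genes called was 4 in the main setting, 2 without scaling between arrays, 1 of 2 tested with the 60th percentile filter, and 2 with the arrays high in Xist (control 6 and deleted 7) as a block, an alternative added after seeing the data. For member features, 5 in the main setting, the same settings gave 2, 1 and 2. With 1 array left out, member genes called ranged from 2 to 4 and member features from 2 to 3. The total of changed genes, 2324, ranged from 703 (without control 3) to 2009, and was 1483 with the Xist block. Calls over the other lists, 38, ranged from 19 to 32. These fits with 1 control assume that it varies like the deleted arrays. The Xist block left Zap70 and Cd28 short of the threshold (adjusted p = 0.059 and 0.069), as did the lack of scaling (0.067 and 0.056). Thy1 passed as a mean of its features, over all of them or over those sharing an accession (log2 fold change -2.30 in both).

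Signs reversed only for uncalled values among the members. Cd3e turned to -0.076 without scaling and to -0.012 (gene) and -0.021 (feature) with array weights, and ranged from -0.14 (without deleted 5) to 0.22 with 1 array left out, with -0.080 without control 3. A Cd28 spot ranged from -0.25 (without control 6) to 1.64, and another from -1.13 (without control 6) to 2.22. The cause of these differences was not tested. No paired analysis was possible because the groups share no sample number. Features near the 40th percentile have little signal over background, so Cd3d, Cd28, Cd247, Bcl11b and Gata3 could not show small changes.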

Other observations

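Features named for T-cell receptor gene segments were looked at after the other values were seen. There were 13 features for 9 genes, and 6 exceeded the 40th percentile of no array. Of the 5 tested, 1 was higher and 0 were lower, against 5.94% higher and 6.89% lower of all features tested. The feature named Trav14d-3-dv8, an alpha-chain variable segment, read 6.34 and 3.91 in controls 3 and 6 and 34.8, 13.8 and 30.8 in deleted 4, 5 and 7. It was at least 2.81-fold higher in deleted cells (limma adjusted p = 0.020 over 27969 features). It exceeded the 40th percentile in no control, so it entered that fit only through the deleted arrays. The feature named Trav14n-1 was brighter and above that percentile on every array. It read 386 and 271 in controls and 401, 367 and 419 in deleted cells (log2 fold change 0.42, adjusted p = 0.26). Trav5-4, also above it on every array, had a log2 fold change of 0.44 (adjusted p = 0.56). Trgv2, a gamma-chain variable segment, had a bright feature that read 2046 in control 3 and 212 in control 6, and 866, 712 and 1974 in deleted 4, 5 and 7. The controls lay on either side of all deleted arrays, and the log2 fold change was 0.83 (SE 0.89, adjusted p = 0.58). A second bright Trgv2 feature, for K02899, gave the same order of arrays, at 405, 30.7, 112, 102 and 268. A further Trgv2 feature with the same accession as the brightest did not exceed 7.10, and the feature for AK042318 exceeded the 40th percentile in control 3 alone, at 12.4. Variable segments are similar in sequence, so their features can share signal.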
